A study of Mus musculus with 6 samples.

Results

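The 10 proteoglycan genes Dcn, Lum, Bgn, Sdc1, Sdc2, Sdc4, Gpc1, Gpc3, Gpc4 and Gpc6 were followed in esophageal epithelium of mouse embryos labelled as knockouts of the transcription factor p63 (p63KO). They were taken by gene symbol from a count table of 23284 symbols, and all 10 had a row. The genes were selected on their p63KO and control levels in these same libraries, including a contrast of Dcn with Lum and Bgn, so their own levels and fold changes are given as a description with no test. The p63KO group was 3 libraries from mouse embryos homozygous for a Trp63-CreERT2 allele, and the control group was 3 libraries from littermates, which the sample titles call WT. In both groups the epithelium had been separated from the esophagus at embryonic day 12.5 and its RNA sequenced. The number of embryos behind a library is not known from the labels, so p-values reflect variation between libraries, which may be partly technical. Sex-linked RNAs, given below, differed between libraries, so the libraries were not all the same material.

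Proteoglycans are proteins that carry long sulfated sugar chains, the glycosaminoglycans. Decorin (Dcn), biglycan (Bgn) and lumican (Lum) belong to the small leucine-rich proteoglycans, which are secreted into the matrix and bind collagen fibrils, and decorin also binds growth factors such as TGF-beta. Syndecans span the plasma membrane and glypicans are held to it by a lipid anchor, and both present heparan sulfate chains that bind FGF, Wnt and Hedgehog ligands. In developing organs, decorin and lumican are usually named as products of fibroblasts, and syndecan-1 (Sdc1) as the main syndecan of epithelia.

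Among the syndecans and glypicans, Sdc1, Sdc4 and Gpc4 were the genes with the largest falls in level, so the promoter sequences on file for them are shown, together with that of Gpc3, whose gene neighbours Gpc4 on the X chromosome and which was not lower. Each is the 250 bases directly upstream of the annotated start, 5′ to 3′ on the gene's strand, from RefSeq, build GRCm38.p6. Capitals mark GGGCGG, the GC box, or its reverse complement CCGCCC.
Sdc1 (chr12:8771146-8771395, plus strand): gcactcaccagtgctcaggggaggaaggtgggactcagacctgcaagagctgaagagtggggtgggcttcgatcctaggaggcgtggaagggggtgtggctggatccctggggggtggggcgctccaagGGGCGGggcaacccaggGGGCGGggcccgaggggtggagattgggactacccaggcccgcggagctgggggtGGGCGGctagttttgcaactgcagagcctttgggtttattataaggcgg
Sdc4 (chr2:164443189-164443438, minus strand): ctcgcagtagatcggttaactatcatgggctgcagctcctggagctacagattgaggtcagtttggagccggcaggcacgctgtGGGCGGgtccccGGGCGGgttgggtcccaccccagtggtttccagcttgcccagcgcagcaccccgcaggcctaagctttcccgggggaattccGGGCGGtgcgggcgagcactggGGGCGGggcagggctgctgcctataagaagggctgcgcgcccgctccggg
Gpc4 (chrX:52164924-52165173, minus strand): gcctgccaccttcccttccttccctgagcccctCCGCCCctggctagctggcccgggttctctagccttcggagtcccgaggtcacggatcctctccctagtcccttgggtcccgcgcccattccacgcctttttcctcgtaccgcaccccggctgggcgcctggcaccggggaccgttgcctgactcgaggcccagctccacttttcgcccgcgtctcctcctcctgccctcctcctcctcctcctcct
Gpc3 (chrX:52613975-52614224, minus strand): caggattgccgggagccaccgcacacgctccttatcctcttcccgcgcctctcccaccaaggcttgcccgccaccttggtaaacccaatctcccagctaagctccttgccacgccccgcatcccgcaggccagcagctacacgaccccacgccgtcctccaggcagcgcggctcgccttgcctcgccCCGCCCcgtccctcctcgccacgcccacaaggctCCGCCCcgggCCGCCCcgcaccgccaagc
The GC box stood 3 times upstream of Sdc1, 4 times upstream of Sdc4, once upstream of Gpc4 and 3 times upstream of Gpc3, and 32.7% of the 32851 promoters in the RefSeq table held it on either strand. TATAAA, searched on both strands, was in none of these 4 windows and in 12.4% of all promoters. Only that exact sequence was searched for. Close variants, such as the TATAAG that stands in the Sdc1 and Sdc4 windows, were not counted. Half-site cores of the p53 family motif, as a pair with no spacer, were in none of the 4 and in 5.84% of all promoters. The bases that flank the cores in the full motif were not required. Single cores stood at 4 sites for Sdc1, 2 for Sdc4, 4 for Gpc4 and 7 for Gpc3, and in 96.5% of all promoters. The G+C content was 66% for Sdc1, 68% for Sdc4, 68.4% for Gpc4 and 71.6% for Gpc3. Promoter entries matched 5 of the 10 genes (these and Bgn), and Dcn, Lum, Sdc2, Gpc1 and Gpc6 had no entry.

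The libraries held between 13335328 and 16506401 counts in p63KO and between 16948971 and 20093838 in control. Trp63 was at 71.4 ± 8.03 CPM (counts per library size, corrected for composition by the TMM method) in p63KO and at 602.9 ± 63.9 CPM in control (SD, n = 3 each), and its lowest control library was at 550.6 CPM and its highest p63KO library at 76.7 CPM. Of 13849 genes with enough counts to test, 4098 (29.6%) were called at an edgeR quasi-likelihood adjusted p under 0.05, of which 2113 (15.3%) were higher and 1985 (14.3%) lower in p63KO. All 10 proteoglycan genes could be tested. By the same threshold 6 of them were called, 2 higher and 4 lower, a count that the choice of genes shaped and from which nothing is read. With 1 library left out, the number called higher was 2 without p63KO replicate 1 and 1 without any other single library, where Gpc3 was the gene no longer called. Of the genes called lower, Gpc6 was lost without p63KO replicate 1, p63KO replicate 3, control replicate 2 or control replicate 3. Sdc2 was called lower without p63KO replicate 3, and also with limma-voom and with the replicate number as a block. Libraries did not overlap between the groups for 6 of the 10 genes, and for 44.1% of all tested genes.

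Dcn was 7.68 times as high in p63KO as in control, whereas Lum and Bgn were both low in every library and overlapped between the groups. Dcn stood at 1342, 1053 and 1272 CPM in the p63KO libraries, against 152.4, 211.1 and 113.5 CPM in the control libraries. All 3 p63KO libraries were high and all 3 control libraries low, and the groups lay far apart. Its log2 fold change was 2.94 (SE 0.20), and it ranged from 2.75 to 3.20 with 1 library left out. By mean CPM Dcn was the 28th most abundant of the tested genes in p63KO and the 1491st in control. These ranks are on CPM, which is not divided by gene length.

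Lum, which takes part in ordering collagen fibrils, had 49, 23 and 35 counts in the p63KO libraries and 88, 50 and 68 in the control libraries. That is 2.89, 1.59 and 2.60 CPM in p63KO and 4.73, 2.55 and 4.004 CPM in control. The groups overlapped, since p63KO replicates 1 and 3 stood above control replicate 2, and the log2 fold change was -0.66 (SE 0.32). Bgn had 90, 64 and 41 counts in p63KO and 108, 84 and 115 counts in control. In CPM it was at 5.31, 4.43 and 3.04 in p63KO and at 5.80, 4.29 and 6.77 in control, also with overlap, and its log2 fold change was -0.39 (SE 0.27).

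The contrast of Dcn with Lum and Bgn restates how the genes were chosen, and Lum and Bgn, with overlapping groups, show no clear direction of their own. The log2 fold change of Dcn exceeded that of Lum by 3.61 and that of Bgn by 3.33. With 1 library left out these differences lay between 3.37 and 4.08 for Lum and between 2.98 and 3.75 for Bgn. Per kb of exon, the ratio of Dcn to Lum was 586.1, 834.2 and 618.1 in p63KO and 40.7, 104.3 and 35.8 in control. The ratio of Dcn to Bgn was 315.3, 296.2 and 521.4 in p63KO and 32.8, 61.4 and 20.9 in control. Control replicate 2, with the most Dcn and the least Lum and Bgn of its group, had the highest ratio of the controls in both cases. Dcn alone made up 99.6% of the summed CPM per kb of the trio in p63KO and 95.1% in control.

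**Figure D1:**
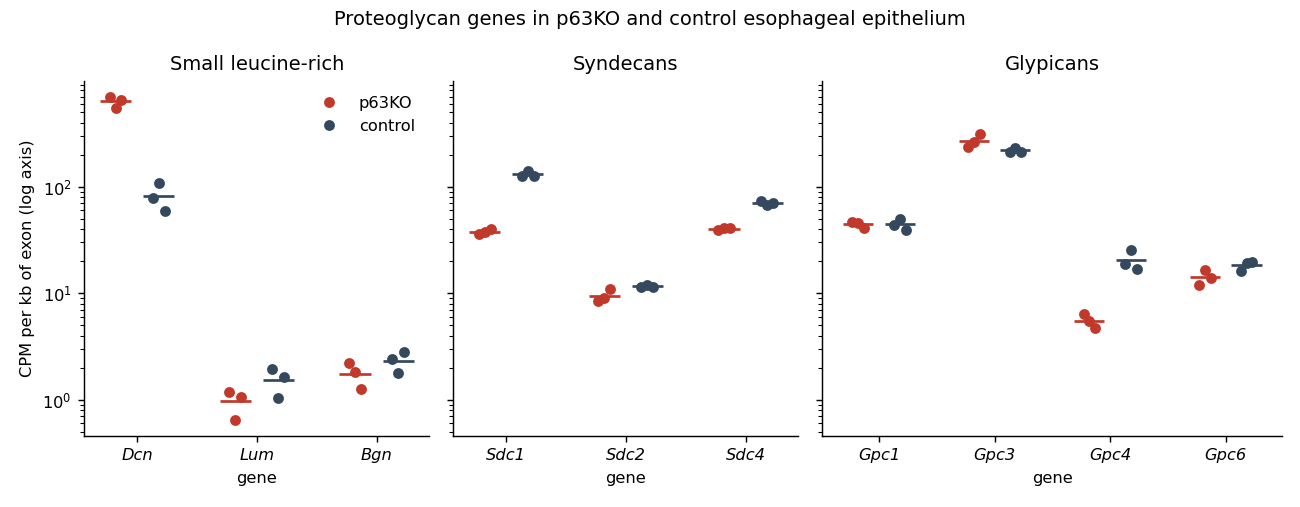
Level of each gene in every library, as CPM per kb of exon on a log axis, with p63KO in red at the left of each pair and control in blue at the right; points are libraries and lines are group means of 3. Dcn was at 630.5 CPM per kb in p63KO and 82.0 in control, while Lum and Bgn stayed under 3 CPM per kb in all 6 libraries.

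Fibroblast genes were measured in the same libraries, since Dcn is among the usual markers of mesenchyme. The 32 listed mesenchyme genes summed to 765.4, 666.2 and 565.2 CPM in p63KO and to 1087, 944.3 and 1090 CPM in control, and none was at 0 in all libraries. The sum was lower in every p63KO library than in any control library, and Dcn the reverse. Dcn was thus 1.75, 1.58 and 2.25 times the mesenchyme sum in p63KO and 0.14, 0.22 and 0.10 times that sum in control. Of the 28 tested mesenchyme genes, 15 were lower, 3 were higher and 10 were not called (64.3% called, against 29.6% of all tested genes), with a median log2 fold change of -1.10 against -0.01 for all genes. Without control replicate 1, 9 mesenchyme genes were lower. The fall was not even over the list. The largest fall in CPM was in Fbln1, at 81.3 ± 6.47 CPM in p63KO and 210.3 ± 31.8 CPM in control (SD, n = 3 each). On the log2 scale the largest falls were in Snai2 and Zeb2, with log2 fold changes of -4.93 and -3.24. Snai2 was at 1.21 ± 0.73 CPM in p63KO and 37.8 ± 5.95 CPM in control. Vim, the most abundant of the list, was at 141.6 ± 8.65 CPM in p63KO and 155.1 ± 21.3 CPM in control and was not called (edgeR adjusted p = 0.372). The genes that were higher were the transcription factors Tbx18, Twist1 and Meox1, with log2 fold changes of 3.26, 1.33 and 1.85.

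The fibrillar collagen Col1a1, a defining product of fibroblasts, was at 67.7, 42.7 and 21.7 CPM in p63KO and at 106.0, 65.3 and 109.9 CPM in control. Col3a1 had a similar course, with 60.7, 49.0 and 21.4 CPM in p63KO and 108.1, 59.4 and 117.4 CPM in control. Within the control group, replicate 2 had the most Dcn and the least of both collagens, whereas within p63KO, replicate 1 had the most Dcn and also the most of both collagens. In bulk RNA, fewer cells of a type and less RNA per cell cannot be told apart. As a check of the tissue, 16 pan-epithelial genes summed to between 5964 and 6172 CPM in p63KO and between 5715 and 6067 CPM in control. Epcam, the most abundant of them, was at 947.3 ± 5.13 CPM in p63KO and 851.2 ± 6.61 CPM in control (SD, n = 3 each). Of these 16 genes, 6 were higher, 3 were lower and 7 were not called (56.2% called, against 29.6% of all tested genes), and without p63KO replicate 1 the number higher was 3.

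Markers of other cell types were summed in the same way. The 10 neuroendocrine genes summed to between 413.5 and 529.0 CPM in p63KO and between 2.66 and 7.36 CPM in control, so this list separated the groups in the same direction as Dcn. The 9 cartilage genes, led by Col2a1, summed to between 428.6 and 574.3 CPM in p63KO and between 854.6 and 1225 CPM in control. That sum is mostly Col2a1, which fell together with Col9a3, while Comp, Col9a1 and Col9a2 rose and the list's median log2 fold change was 0.62. The 12 neural crest and enteric neuron genes, led by Erbb3, summed to between 321.9 and 330.3 CPM in p63KO and between 165.1 and 179.0 CPM in control. Muscle genes (13, led by Acta2) summed to between 34.2 and 63.4 CPM in p63KO and between 85.5 and 190.8 CPM in control. Endothelial genes (9, led by Esam) stayed between 6.51 and 10.1 CPM in all libraries, and blood genes (11, led by Hbb-y) between 13.2 and 49.9 CPM, with Hba-a1 and Hba-a2 at 0 throughout. By the edgeR test, the genes called higher and lower were 9 and 0 of 9 tested neuroendocrine genes (100% called), 3 and 2 of 8 cartilage genes (62.5%), 3 and 1 of 11 neural crest genes (36.4%), and 0 and 4 of 9 muscle genes (44.4%), against 29.6% of all tested genes. The zeros held at an unadjusted p under 0.05 and with DESeq2 and limma-voom. None of 5 endothelial or 5 blood genes was called, also with DESeq2 or limma-voom, and none had an unadjusted p under 0.05. The lower muscle genes were 2 without p63KO replicate 1 or control replicate 1 and 1 without p63KO replicate 3, and 2 blood genes were higher without control replicate 3. The lower neural crest genes were 2 without control replicate 2 and 0 without p63KO replicate 3, control replicate 1 or control replicate 3. The part of these cell types in the level of Dcn was not tested.

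**Figure D2:**
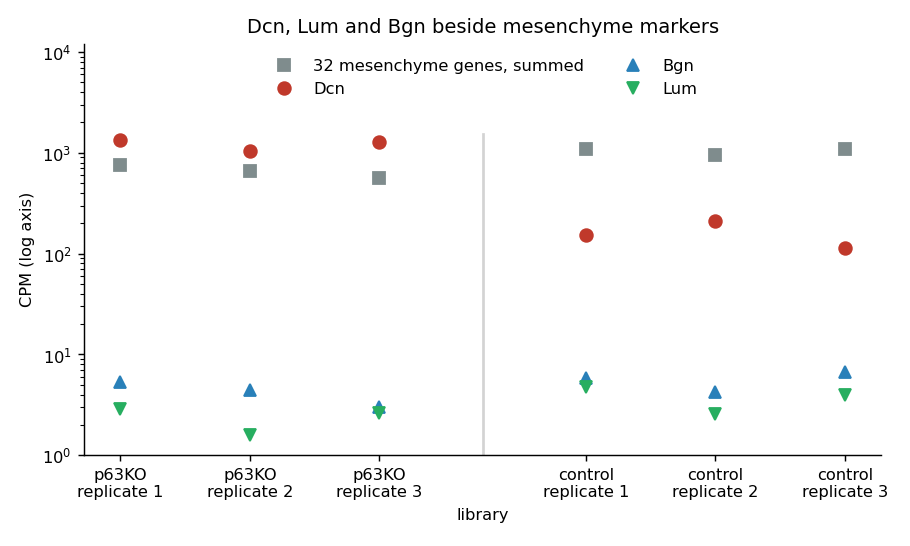
CPM on a log axis of Dcn, Lum, Bgn and the sum of the 32 mesenchyme genes in each library, with the p63KO libraries at the left of the control libraries. Dcn lay above the mesenchyme sum in all 3 p63KO libraries and below it in all 3 controls, while Lum and Bgn stayed under 7 CPM.

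The 5 genes whose levels followed Dcn most closely were Mtap6, Map3k15, Cntn1, Tll1 and Stap1. Likeness was the root mean square difference over the 6 libraries between log2 CPM values centred on each gene's mean, and it lay between 0.22 for Mtap6 and 0.24 for Stap1. Tll1, a tolloid-like protease of the extracellular matrix, was at 3.26 ± 1.07 CPM in p63KO and 0.28 ± 0.15 CPM in control (SD, n = 3 each). Mtap6 (now Map6), a microtubule-stabilizing protein, was at 22.7 ± 3.43 CPM in p63KO and 2.93 ± 0.21 CPM in control. Cntn1, a neuronal cell adhesion protein, was at 4.56 ± 0.50 CPM in p63KO and 0.56 ± 0.05 CPM in control. Map3k15, a protein kinase gene, was at 84.3 ± 8.56 CPM in p63KO and 10.6 ± 0.68 CPM in control, and Stap1, a signalling adaptor gene, at 5.30 ± 0.92 CPM in p63KO and 0.80 ± 0.24 CPM in control. All 5 were found by their likeness to Dcn, so their step between the groups is no separate result.

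Lum lies next to Dcn on chromosome 10 in the reference order, followed by Kera and Epyc, which also encode small leucine-rich proteoglycans. These neighbours were not high in the p63KO libraries. Kera had 2, 1 and 1 counts in p63KO and 2, 3 and 17 in control, and Epyc had 1, 2 and 0 counts in p63KO and 3, 2 and 4 in control, so neither had enough counts to test. Btg1, an antiproliferative gene on the other side of Dcn, fell to 201.7, 210.6 and 210.5 CPM in p63KO, against 329.6, 302.0 and 308.5 CPM in control (log2 fold change -0.59, SE 0.06, edgeR adjusted p = 6.68e-05, with every p63KO library below every control library). Eea1, an endosomal tethering gene further on that side, was at 37.6 ± 3.50 CPM in p63KO and 36.3 ± 1.29 CPM in control (edgeR adjusted p = 0.758).

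Among 14 further small leucine-rich genes, 6 had enough counts to test, 2 were lower, 4 were not called and none was higher by the edgeR quasi-likelihood test, DESeq2 or limma-voom (33.3% called, near the 29.6% of all tested genes). At an unadjusted p under 0.05, 1 was higher. The median log2 fold change was -0.22, and it lay between -0.82 and 0.04 under the alternatives tried. Fmod (fibromodulin, a collagen-binding relative of Lum) was the abundant one, at 501.7, 349.7 and 414.1 CPM in p63KO and at 330.3, 349.0 and 231.7 CPM in control. Its groups were separated by under 1 CPM at their nearest libraries, and it did not pass (log2 fold change 0.47, SE 0.17, edgeR adjusted p = 0.0589). The adjusted p of Fmod ran from 0.0285 to 0.208 over the alternatives. Without p63KO replicate 2 its log2 fold change was 0.62 (adjusted p = 0.0285), and without control replicate 2 it was 0.58 (edgeR adjusted p = 0.0391), so that 1 gene of the list was then higher. Tsku (tsukushi), a secreted modulator of BMP and Wnt signalling, fell to 21.3 ± 2.93 CPM in p63KO, against 43.2 ± 5.24 CPM in control. Prelp fell to 2.89 ± 0.36 CPM in p63KO, against 6.43 ± 0.95 CPM in control (edgeR adjusted p = 0.00307).

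Sdc1, Sdc2 and Sdc4 together were at 252.4 ± 12.3 CPM in p63KO and 627.2 ± 18.4 CPM in control (SD, n = 3 each), a sum that leaves out Sdc3 and whose difference lies mostly in Sdc1. Sdc1, the epithelial syndecan that binds growth factors and matrix, stood at 114.3, 119.1 and 125.7 CPM in p63KO and at 399.1, 439.1 and 399.5 CPM in control. The groups were wide apart, with 29.0% of the control level left in p63KO (log2 fold change -1.79, SE 0.07). Sdc4, a syndecan of focal adhesions, was at 96.4, 101.1 and 100.4 CPM in p63KO and at 180.9, 166.9 and 172.9 CPM in control. It kept 57.2% of the control level (log2 fold change -0.81, SE 0.06), again with no overlap. Sdc2, the syndecan best known from mesenchymal and endothelial cells, was at 29.6, 31.9 and 38.8 CPM in p63KO and at 40.7, 41.9 and 40.4 CPM in control. Its libraries did not overlap either, but p63KO replicate 3 came close to the controls and the log2 fold change was -0.30 (SE 0.11).

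Per kb of exon, on which scale the levels of both genes overlapped in p63KO, the ratio of Sdc1 to Sdc4 was 0.92, 0.92 and 0.97 in p63KO and 1.72, 2.05 and 1.799 in control. Of the CPM per kb summed over Sdc1, Sdc2 and Sdc4 alone, Sdc1 held 43.2 ± 0.27% in p63KO and 61.3 ± 1.97% in control, and Sdc2 held 10.8 ± 1.08% in p63KO and 5.46 ± 0.04% in control (SD, n = 3 each). Sdc3, the fourth member of the family, which is prominent in neural tissue, fell to 78.7 ± 2.71 CPM in p63KO, against 112.7 ± 1.71 CPM in control (log2 fold change -0.52, SE 0.06, edgeR adjusted p = 0.00016). It comes from a list of other proteoglycans and is in none of these sums and shares.

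The sum of Gpc1, Gpc3, Gpc4 and Gpc6, which leaves out Gpc2, overlapped between the groups, at 980.9 ± 87.6 CPM in p63KO and 895.9 ± 59.9 CPM in control (SD, n = 3 each), and the genes differed in direction. Gpc4, which binds FGF and Wnt ligands, was at 16.9, 14.7 and 12.4 CPM in p63KO and at 50.0, 67.5 and 44.3 CPM in control. It kept 27.3% of the control level (log2 fold change -1.87, SE 0.17), close to the change of Sdc1, and the groups did not overlap. Gpc3, a glypican that restrains Hedgehog signalling in the mouse, was the most abundant at 638.0, 713.2 and 835.1 CPM in p63KO and at 573.8, 617.2 and 575.5 CPM in control. Its lowest p63KO library was just above its highest control library, and the log2 fold change was 0.31 (SE 0.09), with values from 0.20 to 0.40 when 1 library was left out.

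Gpc1, a glypican of neural and epithelial cells, had the same mean level in both groups, with 195.8, 189.6 and 171.8 CPM in p63KO and 183.0, 209.4 and 164.7 CPM in control. The log2 fold change was 0.00 (SE 0.09), and it moved between -0.08 and 0.09 with 1 library left out. Gpc6, which takes part in Hedgehog signalling in growing bones of the mouse, was at 44.1, 60.5 and 50.6 CPM in p63KO and at 59.8, 70.8 and 71.9 CPM in control. Its groups overlapped through p63KO replicate 2, which stood above control replicate 1, and the log2 fold change was -0.38 (SE 0.12). Gpc2, a glypican of the developing nervous system, was at 115.6 ± 3.49 CPM in p63KO and 116.8 ± 10.9 CPM in control and did not pass the test (edgeR adjusted p = 0.915). Gpc5 had too few counts to test.

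Gpc3 and Gpc4 are neighbours on the X chromosome, yet their ratio shifted several-fold. Per kb of exon, the ratio of Gpc3 to Gpc4 was 37.1, 47.9 and 66.4 in p63KO and 11.3, 9.01 and 12.8 in control. Of the CPM per kb summed over Gpc1, Gpc3, Gpc4 and Gpc6, without Gpc2, Gpc3 held 80.7 ± 2.86% in p63KO and 72.5 ± 1.60% in control, while Gpc4 held 1.68 ± 0.42% in p63KO and 6.69 ± 1.06% in control. Xist, the RNA of the inactive X chromosome, was at 1.59 CPM in p63KO replicate 2, against at least 514.4 CPM in each of the other 5 libraries, and Y-linked Ddx3y was between 33.8 and 104.9 CPM in all 6. The other 5 libraries thus held both RNAs, as would material pooled from embryos of both sexes. In p63KO replicate 2 the X-linked genes Bgn, Gpc3 and Gpc4 each lay between the values of the other p63KO libraries.

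**Figure D3:**
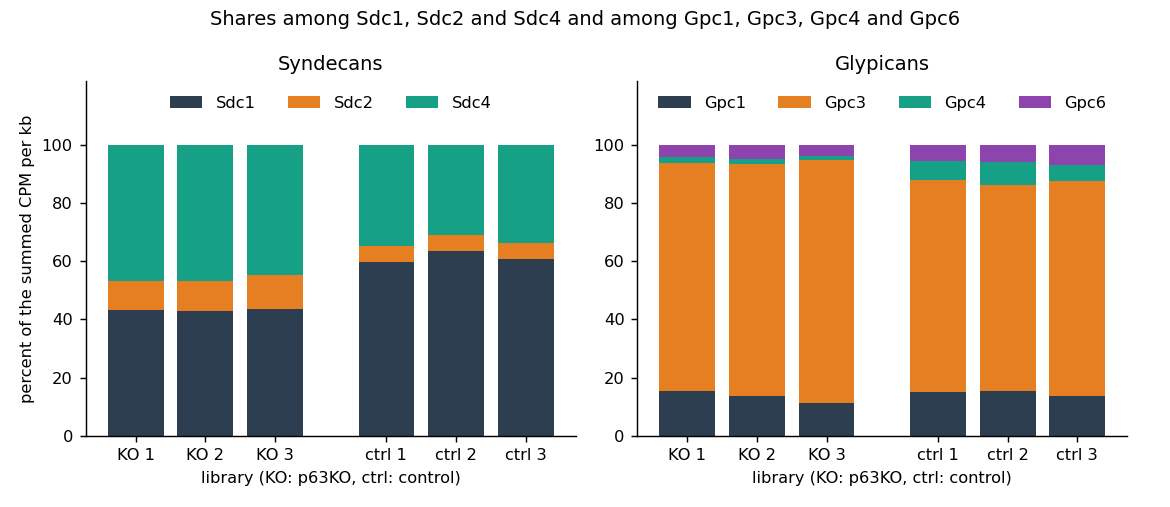
Share of each gene in the CPM per kb summed over Sdc1, Sdc2 and Sdc4 (left) and over Gpc1, Gpc3, Gpc4 and Gpc6 (right), in percent, for each p63KO library and each control library. Sdc1 held 42.9% to 43.4% of the left total in the p63KO libraries and 59.8% to 63.5% in the control libraries, and Gpc3 held the largest share of the right total in all 6 libraries. Sdc3 and Gpc2 are not in these totals.

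**Figure D4:**
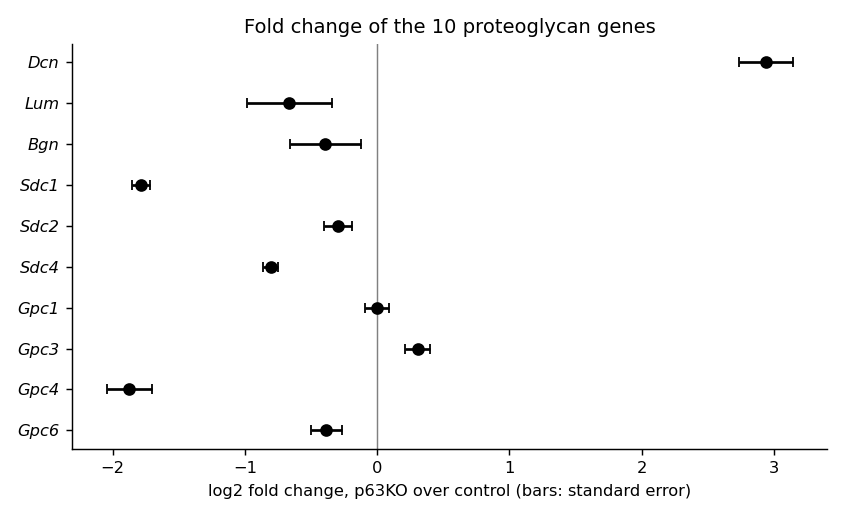
Log2 fold change of p63KO over control for the 10 genes, with bars for the standard error from the edgeR fit on 3 libraries per group. Dcn stands alone at 2.94, Sdc1 lies at -1.79 and Gpc4 at -1.87, and Gpc1 lies at 0.00.

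Ordered by CPM per kb of exon, the genes ran Dcn, Gpc3, Gpc1, Sdc4, Sdc1, Gpc6, Sdc2, Gpc4, Bgn and Lum in p63KO, from 630.5 down to 0.96. In control they ran Gpc3, Sdc1, Dcn, Sdc4, Gpc1, Gpc4, Gpc6, Sdc2, Bgn and Lum, from 218.9 down to 1.54. Some neighbours in these orders overlapped between libraries. In p63KO these were Gpc1 with Sdc4 and Sdc4 with Sdc1, and in control Dcn with Sdc4, Gpc4 with Gpc6 and Bgn with Lum. Dcn thus passed both Gpc3 and Sdc1, and Gpc4 dropped below Sdc2.

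The genes that build, modify and bind these proteoglycans were taken from 8 lists that together name 126 genes. Of the 101 with enough counts to test, 15 were higher, 37 were lower and 49 were not called (51.5% called, against 29.6% of all tested genes). The change reached 2-fold or more for 11 of the higher genes and 16 of the lower genes, and the median log2 fold change was -0.15, against -0.01 over all tested genes. The lists were written with earlier results of these data known.

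Matrix and surface proteoglycans outside the 10 genes changed in both directions, with 6 higher, 8 lower and 3 not called of 17 tested. That is 82.4% called, against 29.6% of all tested genes, with a median log2 fold change of -0.44. The heparan sulfate proteoglycans of basement membranes were lower. Col18a1 (collagen XVIII) fell to 156.6, 215.7 and 152.2 CPM in p63KO, against 727.8, 845.7 and 669.2 CPM in control (log2 fold change -2.10, SE 0.14, edgeR adjusted p = 6.76e-06). Agrn (agrin), the most abundant of the list, fell to 950.6 ± 14.8 CPM in p63KO, against 1586 ± 131 CPM in control, and Hspg2 (perlecan) fell to 314.7 ± 24.6 CPM in p63KO, against 468.2 ± 42.5 CPM in control. Chondroitin sulfate proteoglycans differed in direction. Vcan (versican), Ptprz1 and Cspg4 fell, with log2 fold changes of -1.22, -2.57 and -2.48, while Ncan (neurocan) rose, with 2.65, and Cspg5 was not called, with 1.24 (edgeR adjusted p = 0.127). Others that rose included Spock3 (a testican) with a log2 fold change of 2.26 and the co-receptor Nrp1 with 1.40.

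Enzymes for dermatan and chondroitin sulfate, the chains that decorin and biglycan carry, were mostly lower where they changed. Of 15 tested, 6 were lower, 1 was higher and 8 were not called (46.7% called, against 29.6% of all tested genes). The median log2 fold change was -0.16. Dse, the epimerase that makes dermatan sulfate, fell to 12.5, 14.3 and 15.8 CPM in p63KO, against 54.6, 69.8 and 53.9 CPM in control (log2 fold change -2.07, SE 0.13, edgeR adjusted p = 5.03e-06). Its relative Dsel fell to 22.4 ± 2.45 CPM in p63KO, against 33.8 ± 3.17 CPM in control. Chst14, the dermatan 4-O-sulfotransferase, fell to 16.8, 14.96 and 17.0 CPM in p63KO, against 29.3, 30.1 and 24.9 CPM in control (log2 fold change -0.79, SE 0.11).

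The largest fall of the list was in Chst3, a chondroitin 6-O-sulfotransferase, which was at 1.09 ± 0.43 CPM in p63KO and 15.6 ± 1.83 CPM in control (log2 fold change -3.81, SE 0.27). Chst15, which adds a further sulfate to chondroitin and dermatan chains, fell to 7.16 ± 0.95 CPM in p63KO, against 40.9 ± 5.45 CPM in control, and Chst11 fell by 1.16 on the log2 scale. Chsy1, a chondroitin polymerase and the most abundant of the list, was at 77.5 ± 6.13 CPM in p63KO and 77.6 ± 4.40 CPM in control (edgeR adjusted p = 0.982). The 6 genes that were lower stayed 6 in number with any library left out. The gene that was higher was Csgalnact1 (log2 fold change 0.60, SE 0.17, edgeR adjusted p = 0.0251). The count that was higher was 2 without p63KO replicate 1 and 0 without p63KO replicate 2, p63KO replicate 3, control replicate 2 or control replicate 3.

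In heparan sulfate modification, 5 genes were lower, 1 was higher and 8 were not called of 14 tested. That is 42.9% called, against 29.6% of all tested genes, with a median log2 fold change of -0.24. Sulf1, which removes 6-O-sulfate from chains outside the cell, fell to 27.7, 38.9 and 26.3 CPM in p63KO, against 100.3, 145.9 and 111.3 CPM in control (log2 fold change -1.95, SE 0.17, edgeR adjusted p = 3.64e-05). Hs6st1, which adds 6-O-sulfate and was the most abundant of the list, fell to 255.5 ± 12.4 CPM in p63KO, against 359.0 ± 31.2 CPM in control. Ndst1, which starts sulfation, fell by 0.30 on the log2 scale (SE 0.07). Hpse (heparanase), which cuts the chains, rose to 37.9, 24.8 and 47.2 CPM in p63KO, against 10.2, 3.52 and 6.30 CPM in control (log2 fold change 2.46, SE 0.35, edgeR adjusted p = 0.000654).

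Of 11 tested genes for the linker and the heparan sulfate backbone, 3 were lower and 8 were not called (27.3% called, near the 29.6% of all tested genes, with a median log2 fold change of -0.15). Ext1, a polymerase of the backbone, fell to 88.6 ± 9.23 CPM in p63KO, against 136.6 ± 12.3 CPM in control. The others were Xylt2 and Fam20b, which act on the first xylose, with log2 fold changes of -0.37 and -0.21. Without p63KO replicate 2 only Ext1 was still called, Xylt2 and Fam20b having adjusted p = 0.0591 and adjusted p = 0.131 in the edgeR test. Fam20b was also lost without p63KO replicate 1 (adjusted p = 0.0704) or control replicate 2 (adjusted p = 0.0849), and Xylt2 without p63KO replicate 3 (adjusted p = 0.0504).

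Of 12 tested genes for nucleotide sugar and sulfate supply, 4 were lower, 1 was higher and 7 were not called. That is 41.7% called, against 29.6% of all tested genes. The median log2 fold change was -0.05, and it lay between -0.12 and 0.09 under the alternatives. Ugdh, which makes UDP-glucuronic acid, fell to 63.5 ± 3.27 CPM in p63KO, against 115.8 ± 8.25 CPM in control, and Papss1, which makes the sulfate donor, fell to 160.8 ± 6.77 CPM in p63KO, against 230.1 ± 10.7 CPM in control. The sugar transporter gene Slc35d1 and the sulfate transporter gene Slc26a2 fell by 0.53 and fell by 0.56 on the log2 scale. The gene that was higher was Papss2, at 3.44 ± 0.95 CPM in p63KO and 1.61 ± 0.56 CPM in control (log2 fold change 1.10, SE 0.34, edgeR adjusted p = 0.0374). No gene of this list was higher without p63KO replicate 1 or 3 or control replicate 2 or 3.

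Among 11 tested genes of shedding, release and syndecan adaptors, 4 were lower, 1 was higher and 6 were not called. That is 45.5% called, against 29.6% of all tested genes, with a median log2 fold change of -0.08. Gpld1, a phospholipase that cuts lipid anchors such as those of glypicans, fell to 45.4 ± 1.42 CPM in p63KO, against 78.4 ± 4.81 CPM in control. Notum, a secreted enzyme that inactivates Wnt ligands and acts together with glypicans, rose to 61.5 ± 9.18 CPM in p63KO, against 17.8 ± 10.1 CPM in control. The matrix protease gene Mmp2 fell to 10.3 ± 2.88 CPM in p63KO, against 19.4 ± 0.68 CPM in control. Adam10, a sheddase and the most abundant of the list, was at 225.6 ± 13.1 CPM in p63KO and 231.2 ± 5.77 CPM in control (edgeR adjusted p = 0.718). Without p63KO replicate 2 the list had 2 lower and 2 higher genes, without control replicate 1 it had 2 lower, and without control replicate 3 it had 2 higher.

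Of 15 tested genes for proteins reported to bind decorin, 5 were higher, 5 were lower and 5 were not called. That is 66.7% called, against 29.6% of all tested genes, with a median log2 fold change of -0.08. Of the matrix proteins, Thbs1 and Fn1 rose, with Thbs1 (thrombospondin-1) at 129.2, 103.3 and 165.5 CPM in p63KO and 14.9, 15.2 and 12.5 CPM in control (log2 fold change 3.22, SE 0.17, edgeR adjusted p = 1.86e-06). Fn1 (fibronectin), the most abundant of the list, rose to 700.9, 743.4 and 503.6 CPM in p63KO, against 212.1, 228.1 and 363.5 CPM in control (log2 fold change 1.28, SE 0.21). The receptor genes Egfr and Met fell, with Egfr at 2.09 ± 0.32 CPM in p63KO and 21.1 ± 4.67 CPM in control, and Met at 15.7 ± 0.81 CPM in p63KO and 29.4 ± 7.30 CPM in control. The scavenger receptor gene Lrp1 fell to 98.2 ± 8.54 CPM in p63KO, against 329.8 ± 41.6 CPM in control. The TGF-beta ligand genes split, since Tgfb2 and Tgfb3 rose (log2 fold changes 2.03 and 1.37) and Tgfb1 fell (-2.29).

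**Figure D5:**
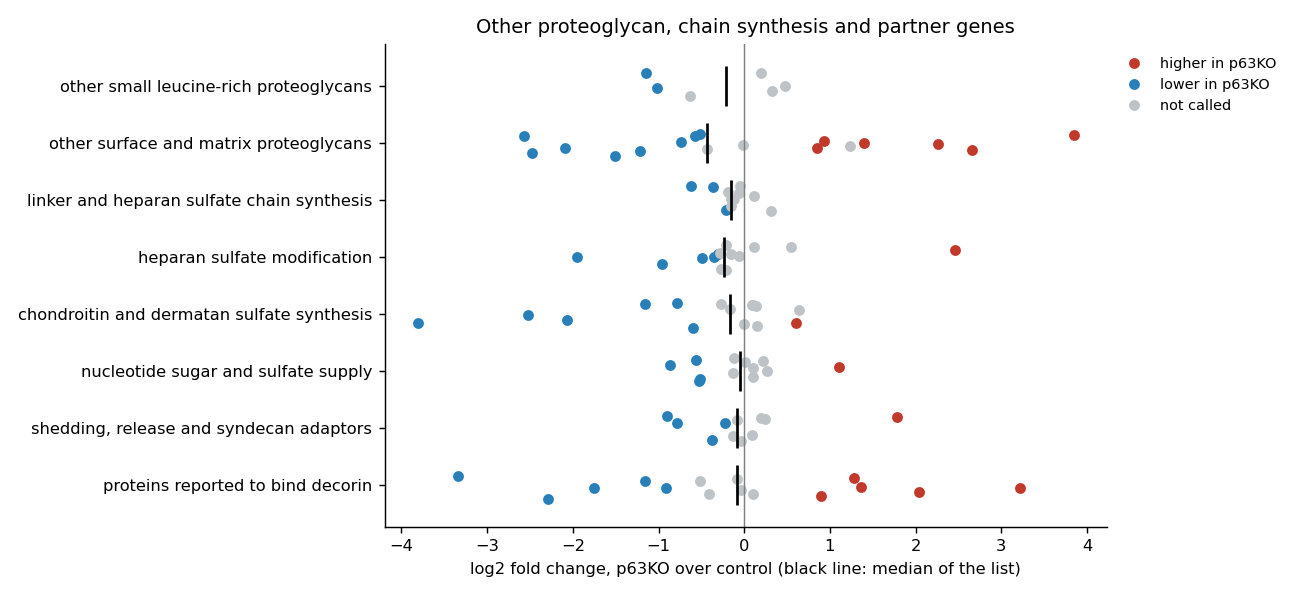
Log2 fold change of p63KO over control for the 101 tested genes of 8 lists, 1 point per gene, coloured by whether the edgeR test called the gene higher or lower in p63KO or not at all, with a black line at each list's median. The medians lie between -0.44 and -0.05, while single genes run from -3.81 for Chst3 to 3.85 for Spock1. Spock1 had 45, 20 and 23 counts in p63KO and 5, 0 and 2 in control, so its fold change (SE 0.66) rests on few counts.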

How the data were processed

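RNA of 3 p63KO and 3 littermate control samples of esophageal epithelium was sequenced. The authors deposited a table of raw, unnormalized read counts, 1 row per gene symbol. The submitters' processing notes name TopHat2 2.1.0, bcl2fastq 1.8.4, DESeq2 and build mm9. For the read counter, its annotation and its use of strand, the sources used here give nothing, so reads of overlapping or antisense genes cannot be told apart. Columns were tied to samples by the names in the sample descriptions. From the counts, R 4.3.3 and edgeR 4.0.16 were used: filterByExpr (minimum count 10, minimum total 15), TMM scaling and the quasi-likelihood test on group alone, with Benjamini-Hochberg adjustment over 13849 genes and a threshold of 0.05. The SE is the log2 fold change divided by the square root of F. CPM uses TMM-scaled library sizes, on which 3 counts equal 0.15 to 0.22 CPM. Levels per kb use merged exons of GENCODE M21 (GRCm38), which is not the authors' annotation. No replicate pair agreed within sampling noise (chi-square per degree of freedom 7.53 to 15.3). The procedure was tested on simulated data.

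The genes and lists were chosen with earlier results of these data known. Beyond the 10 genes and Trp63, the text names the 3 lowest-p called genes and the most abundant gene of each of 8 lists, the most abundant gene of each marker list (1 item is not reported here), neighbours of Dcn and Lum, and the 5 genes most like Dcn (mean of at least 1 CPM, clone names left out); further genes were picked with their values known. The neighbours Gm46240 and Ccer1 were not analysed here. One listed symbol, Foxf1, was matched through its older symbol Foxf1a. Alternatives were 2 other scalings, 2 other filters, DESeq2 1.42.0, limma-voom (limma 3.58.1), the replicate number as a block, and each library left out.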

Additional observations from a re-analysis of the deposited data

How the results depend on the processing

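The log2 fold changes of the 10 genes, and the differences of Dcn from Lum and Bgn, moved by less than the spread between replicates under all 13 alternatives. Leaving 1 of 3 libraries out can hardly move a group mean by more than that spread, so for those alternatives nothing is read from it. The counts of all genes stayed within 1.5 times (1650 to 2397 higher and 1500 to 2381 lower). Across the 8 lists together, 10 to 18 genes were higher and 32 to 39 lower. Small counts moved more. Among small leucine-rich genes, 1 was higher with library totals, with no filter and with the replicate number as a block. The chondroitin list had 2 higher with DESeq2 and with the block. The shedding list had 2 higher with median-of-ratios scaling, library totals, no filter, DESeq2 and the block. The neural crest list had 1 lower gene, against 2 with DESeq2 and 0 with limma-voom and with the block. With 1 library left out, the counts ranged from 1 to 2 for the 10 genes higher, 0 to 1 for small leucine-rich genes higher, 1 to 3 for linker genes lower, 0 to 2 for chondroitin genes higher, 0 to 1 for supply genes higher, 1 to 2 and 2 to 4 for shedding genes higher and lower, 9 to 16 for mesenchyme genes lower, 3 to 7 for pan-epithelial genes higher, 1 to 4 for muscle genes lower, 0 to 2 for blood genes higher and 0 to 2 for neural crest genes lower. The cause was not tested. Same-numbered p63KO and control libraries had correlated deviations (r = 0.22, 0.28 and 0.06), under the 0.1 set for pairing in the third pair, although each library correlated best with its own number; with the block, 2397 genes were higher and 2381 lower. Lum and Bgn rest on 23 to 115 counts per library, which limits the precision of their fold changes.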
